A study of Homo sapiens with 12 samples.

Results

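Chromosome 21 held 3592 of the 273664 H3K27me3 intervals of this study, or 1.31% of them, and these 3592 are described here along the chromosome. An interval is a stretch in which a peak was called in at least 1 of 4 chromatin immunoprecipitation (ChIP-seq) libraries, with overlapping peaks joined. The intervals were chosen by chromosome alone, but each exists only because a library had a peak there, so that a stretch with a peak in no library was not counted. They covered 18.2 Mb, from 253 to 228660 bp each (median 1848 bp), between positions 5030442 and 46699727 of the GRCh38 (hg38) build.

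The 4 libraries came from T24 cells, an established human line derived from a bladder carcinoma, and differed in treatment. Cells were kept for 72 h with vehicle (DMSO), with 5 µM GSK-126, with 5 µM fenretinide, or with 5 µM of each together, called the combination here. GSK-126 is an inhibitor of EZH2, the enzyme that places methyl groups on lysine 27 of histone H3, and fenretinide is a synthetic retinoid. All cells were fixed with formaldehyde, and the labels of the 4 libraries differ only in the agent. The counts hold no marker that would check the cell line. Each condition had 1 ChIP library, so no value here has a replicate check and no p-value is given. The 4 input and 4 RNA libraries that the labels also list were not analysed here.

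H3K27me3 is the repressive mark written by Polycomb repressive complex 2, whose catalytic subunit is EZH2. In differentiated cells it lies as compact domains over silent developmental genes and as a lower, broad layer over long silent stretches. Chromosome 21 is among the smallest human chromosomes and is acrocentric: its short arm carries repeats shared with other acrocentric chromosomes, the proximal long arm is poor in genes, and the distal long arm is rich in them. The chromosome is described in 4 segments. The first segment lies below 14 Mb and holds the short arm and the sequence around the centromere, the proximal segment runs from 14 to 30 Mb, the middle segment from 30 to 42 Mb, and the distal segment from 42 Mb to the end.

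Promoter sequence is shown first for 4 genes whose start lies in a long interval, 2 with a higher and 2 with a lower share under GSK-126, so that their base composition can be set beside the counts. Each line gives the 250 bases before a RefSeq transcription start (GRCh38.p14), 5′ to 3′ on the gene's strand, with CG pairs in capitals. DSCAM (minus strand, chr21:40847159-40847408) and CHODL (plus strand, chr21:18244583-18244832) lay in intervals with a higher share under GSK-126. AIRE (plus strand, chr21:44285626-44285875) and UMODL1 (plus strand, chr21:42062627-42062876) lay in intervals with a lower share. The 4 were chosen after their values were seen.
DSCAM: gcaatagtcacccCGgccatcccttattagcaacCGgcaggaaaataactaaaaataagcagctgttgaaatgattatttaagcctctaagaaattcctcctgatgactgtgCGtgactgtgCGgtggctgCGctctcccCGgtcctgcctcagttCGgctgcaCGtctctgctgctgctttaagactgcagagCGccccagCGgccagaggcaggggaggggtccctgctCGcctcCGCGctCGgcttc
CHODL: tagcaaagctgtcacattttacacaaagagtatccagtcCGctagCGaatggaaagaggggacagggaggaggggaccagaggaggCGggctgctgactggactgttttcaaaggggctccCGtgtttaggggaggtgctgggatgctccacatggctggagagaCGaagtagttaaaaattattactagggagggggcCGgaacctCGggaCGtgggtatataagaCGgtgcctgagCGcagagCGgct
AIRE: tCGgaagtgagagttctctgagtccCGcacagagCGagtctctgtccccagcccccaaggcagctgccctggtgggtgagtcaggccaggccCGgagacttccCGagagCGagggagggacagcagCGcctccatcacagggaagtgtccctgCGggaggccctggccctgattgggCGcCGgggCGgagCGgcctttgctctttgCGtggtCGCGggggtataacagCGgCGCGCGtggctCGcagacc
UMODL1: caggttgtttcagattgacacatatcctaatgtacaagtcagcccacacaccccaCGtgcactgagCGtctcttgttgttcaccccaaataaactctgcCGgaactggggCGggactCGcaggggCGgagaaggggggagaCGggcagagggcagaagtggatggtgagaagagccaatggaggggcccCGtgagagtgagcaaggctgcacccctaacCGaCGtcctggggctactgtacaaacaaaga

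These stretches held 14, 11, 20 and 10 CG pairs in that order, and 56.8%, 55.2%, 68.4% and 57.2% of their bases were G or C. Over the 300-base RefSeq windows, which run from 250 bases before to 50 after a start, the median was 14 CG pairs for all 35116 windows and 9.5 for the 488 of chromosome 21. The motif searched was CG, which reads the same on both strands. Of the 488 windows, 142 overlapped an interval, with a median of 4 CG pairs, and 346 overlapped none, with a median of 14. The 25 windows in intervals called higher with GSK-126 had a median of 8 CG pairs, and the 26 in intervals called lower had a median of 6. A gene can have several windows in these counts.

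The interval around the DSCAM start, chr21:40780648-40962989, held 860 fragments with vehicle, 3088 with GSK-126, 1190 under fenretinide and 2541 under the combination. DSCAM encodes an adhesion molecule of the immunoglobulin superfamily that guides neuronal wiring. Around the CHODL start, chr21:18241598-18247551 held 29, 110, 27 and 57 fragments in the same order. CHODL encodes chondrolectin, a membrane protein with a C-type lectin domain. The opposite order was seen around the AIRE start, where chr21:44282898-44298109 held 378, 82, 177 and 77 fragments. AIRE is the autoimmune regulator that lets thymic epithelium express tissue-restricted antigens. At UMODL1, an uromodulin-like gene, chr21:42051555-42078091 held 544, 164, 504 and 185 fragments.

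To compare libraries, each count was divided by all interval fragments of its library, which were 17133107 with vehicle, 16156194 with GSK-126, 18928836 under fenretinide and 15812933 under the combination. A ratio below is a ratio of such shares, and its range in brackets is an exact 95% interval that covers counting error only. The ratio compares 2 libraries, not 2 conditions. No reference chromatin from another species is named in the labels, so a higher share does not say that a site carried more of the mark. A second scaling, to the 25% of intervals with the fewest fragments per kb, multiplied every ratio of GSK-126 to vehicle by 0.588, of fenretinide to vehicle by 0.911 and of the combination to vehicle by 0.569. Under it, ratios to vehicle below 1.70, 1.10 and 1.76 in that order come to lie below 1. Comparisons between places on the chromosome do not depend on that choice.

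Chromosome 21 took 0.978% of interval fragments with vehicle (95% interval 0.973 to 0.982), 1.38% with GSK-126 (1.37 to 1.38), 1.02% under fenretinide (1.01 to 1.02) and 1.28% under the combination (1.28 to 1.29). The share was therefore 1.41 times that of vehicle with GSK-126 (1.40 to 1.42), 1.04 times with fenretinide (1.04 to 1.05) and 1.31 times with the combination (1.30 to 1.32). In the GSK-126 library this ratio ranked 1 among 23 chromosomes, ahead of X at 1.36 and chromosome 4 at 1.28, while chromosome 17 was lowest at 0.664. In the combination library chromosome 21 ranked 2, behind X at 1.36, and with fenretinide it ranked 5. These ranks hold under any scaling of whole libraries, but the direction does not: under the scaling to low intervals the ratios were 0.829, 0.950 and 0.747. Without the first segment the GSK-126 ratio was 1.25 (1.24 to 1.25), below X at 1.36 and chromosome 4 at 1.28. The combination ratio was then 1.20, below chromosome 4 at 1.285. Both ranks thus depended on the first segment, and the other chromosomes were not cut in this way.

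**Figure D1:**
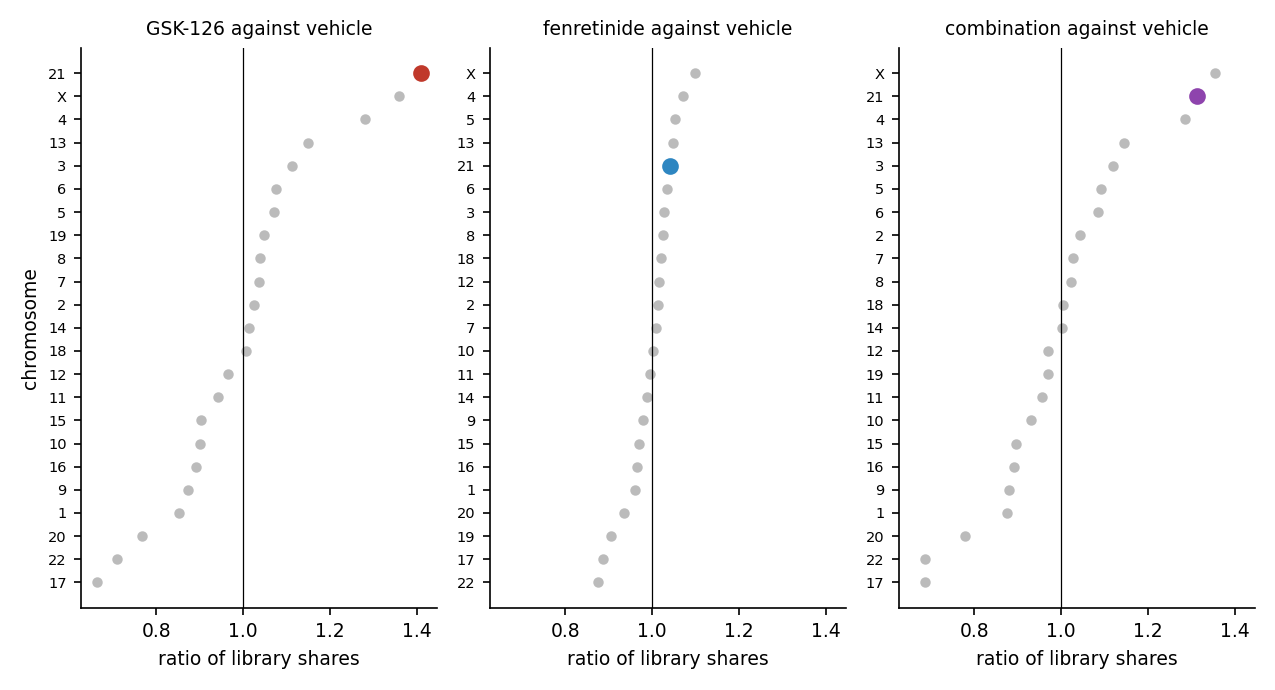
Ratio of each chromosome's share of interval fragments in a treated library to that in the vehicle library (x axis), with 1 point per chromosome ordered by ratio (y axis) and chromosome 21 in colour. Chromosome 21 stands at 1.41 with GSK-126, 1.04 under fenretinide and 1.31 under the combination; each library was sequenced once.

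From 14 Mb on, the vehicle library was uneven along the chromosome and the GSK-126 library nearly level, whereas bins of the first segment stood far above the rest with GSK-126. Over all 41 bins that hold an interval, the coefficient of variation of density was 53.2% with vehicle, 90.7% with GSK-126, 41.3% under fenretinide and 73.7% under the combination. The densest bin with GSK-126 lay in the first segment, at 86.5 fragments per kb. Over the 33 bins of 1 Mb on the long arm from 14 Mb on, the vehicle library ran from 2.42 to 19.1 fragments per kb of interval (median 10.3), with a coefficient of variation of 52.4%. In the GSK-126 library the same bins ran from 7.07 to 14.6 (median 10.6), with a coefficient of variation of 16.3%. Fenretinide gave 4.13 to 20.4 (median 11.7) and 41.2%, and the combination 7.40 to 13.3 (median 9.80) and 12.8%. A coefficient of variation within a library does not depend on scaling. Restricted to intervals that had a peak in all 4 libraries, the 4 values were 45.2%, 22.8%, 34.9% and 17.97%. Where H3K27me3 was dense with vehicle it was also dense with fenretinide (Spearman rho of 0.92 over all 41 bins), and the order of bins in the combination library followed that in the GSK-126 library (rho of 0.90). The order in the GSK-126 library bore little relation to that in the vehicle library (rho of -0.27). These are descriptions over 41 bins that share their interval borders, mappability and base composition. Over 2851 bins of the other chromosomes the same rhos were 0.95, 0.95 and -0.07, so these orders were not particular to chromosome 21. The coefficient of variation over those bins was 48.4% with vehicle and 38.6% with GSK-126. It was lower with GSK-126 than with vehicle on most other chromosomes, such as X (50.4% and 22.8%), and higher on chromosomes 15, 16, 17 and 22.

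**Figure D2:**
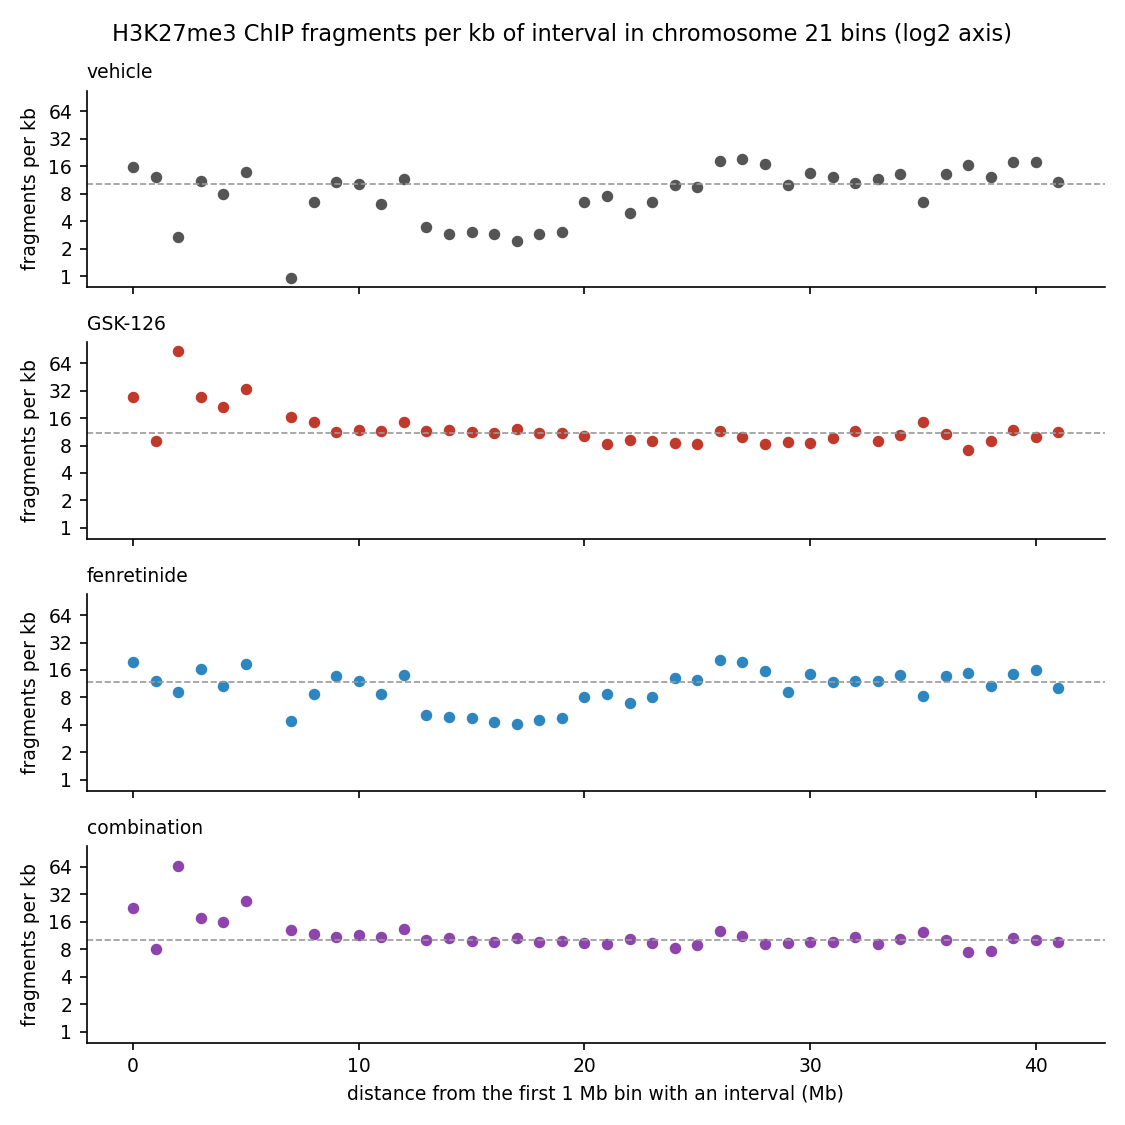
Fragments per kb of interval (y axis, log2) in each 1 Mb bin of chromosome 21 against its distance from the first bin (x axis), with 1 panel per library and the dashed line at the median over bins. From 9 Mb on, which is the long arm beyond the first segment, the vehicle and fenretinide points dip together near 13 to 19 Mb, while the GSK-126 and combination points stay between 7.07 and 14.6 per kb.

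The dip was a stretch from 18 to 25 Mb, delimited after its values were seen, with the midpoints of 3 protein-coding genes in it: its 7 bins were the lowest of the long arm with vehicle. Its 1179 intervals held 14655 fragments with vehicle, 56600 with GSK-126, 23153 under fenretinide and 49720 under the combination. That is 2.95, 11.4, 4.66 and 10.0 fragments per kb. The GSK-126 share was 4.10 times that of vehicle (4.02 to 4.17), the combination share 3.68 times (3.61 to 3.74) and the fenretinide share 1.43 times (1.40 to 1.46). The distal segment had the reverse order, with 16.5, 9.47, 14.3 and 9.12 fragments per kb. With vehicle, the distal segment was therefore 5.58 times as dense as the stretch from 18 to 25 Mb, and with fenretinide 3.08 times. With GSK-126 it was 0.832 times as dense, and with the combination 0.911 times.

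Peaks called in each library separately gave the same picture in the stretch from 18 to 25 Mb. The vehicle library had 170 peaks covering 0.154 Mb there, none longer than 5884 bp. The GSK-126 library had 1128 peaks covering 3.59 Mb, the combination 1252 covering 3.83 Mb, and fenretinide 430 covering 0.444 Mb. In the distal segment the number of peaks was close, at 257 with vehicle and 267 with GSK-126. Their length was not, with 1.47 Mb with vehicle and 0.802 Mb with GSK-126. The stretch owes most of its intervals to peaks of the GSK-126 and combination libraries, which favours a high ratio there. Only 21.9% of its interval length lay in intervals with a peak in all 4 libraries. In those alone, still as a share of all interval fragments, the ratio of GSK-126 to vehicle was 3.52, and that of the combination 3.14.

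The 4 segments were taken by position, from the short arm to the end of the long arm. In the first segment, vehicle, GSK-126, fenretinide and combination libraries held 17024, 45932, 23319 and 35853 fragments, and the ratio of GSK-126 to vehicle was 2.86 (2.81 to 2.91). In the proximal segment they held 44013, 94148, 60221 and 85589, with a ratio of 2.27 (2.24 to 2.29). The middle segment, which carries the largest number of the chromosome's protein-coding genes (112 of 239), held 76193, 65112, 83004 and 64720 fragments, and its ratio was 0.906 (0.897 to 0.916). The distal segment, with 77 coding genes, held 30285, 17434, 26401 and 16782 fragments, and its ratio was 0.610 (0.599 to 0.622). The combination followed the same order, with ratios to vehicle of 2.28, 2.11, 0.920 and 0.600. Fenretinide kept the order with a smaller range, at 1.24, 1.24, 0.986 and 0.789.

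The proximal segment held 26.3% of the chromosome's fragments with vehicle, 42.3% with GSK-126, 31.2% under fenretinide and 42.2% under the combination. The distal segment held 18.1%, 7.83%, 13.7% and 8.27%. Taken as a ratio of ratios, which no scaling changes, the proximal segment's ratio to vehicle was 3.72 times the distal one's with GSK-126, 1.57 times with fenretinide and 3.51 times with the combination. In intervals with a peak in all 4 libraries these were 2.82, 1.48 and 2.67. All 3 comparisons share the vehicle library, so that the 3 values are not independent of each other.

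In bins of 1 Mb, a bin counted as higher from a ratio of 1.5 upwards and as lower from 0.667 downwards, given at least 200 fragments in the 2 libraries together. With GSK-126, 18 of 41 bins were called higher, against a background of 26.4% of all bins of the genome, and 5 were called lower, against 23.1%. With the combination 19 were higher (background 25%) and 5 lower (background 18%). With fenretinide 2 of 40 were higher (background 1.32%) and 0 lower (background 0.277%); the lowest was 0.742. Between the combination and GSK-126 no bin was called in either direction on chromosome 21 (background 0% both ways), with ratios from 0.6671 to 1.15. Against fenretinide the combination was higher in 14 bins (background 20.7%) and lower in 1 (background 9.34%). Under the scaling to low intervals the split was 11 higher and 18 lower with GSK-126, 9 and 19 with the combination, and 8 and 16 for the combination against fenretinide.

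The bins called higher with GSK-126 lay at the start of the chromosome and in the proximal segment, with 1 exception. In the first segment 7 of 8 bins were higher, in the proximal segment 10 of 16, and all 7 bins from 18 to 25 Mb were, with ratios of 3.498 to 5.33. On other chromosomes 153 of 2850 bins (5.37%) had a ratio of at least 3.498. The exception was the bin at 40 Mb, at 2.37 (5966 fragments with vehicle and 13345 with GSK-126), which is occupied by DSCAM. The bins called lower were those at 31, 32, 33, 42 and 45 Mb. The bin at 42 Mb, which holds the trefoil factors and UMODL1, was lowest, with 9984, 4234, 8823 and 4432 fragments in the usual order and a ratio of 0.450 (0.434 to 0.466). The bin at 33 Mb, which holds OLIG1, OLIG2 and the interferon receptors, had 4422, 2151, 4027 and 2334 fragments and a ratio of 0.516 (0.490 to 0.543).

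**Figure D3:**
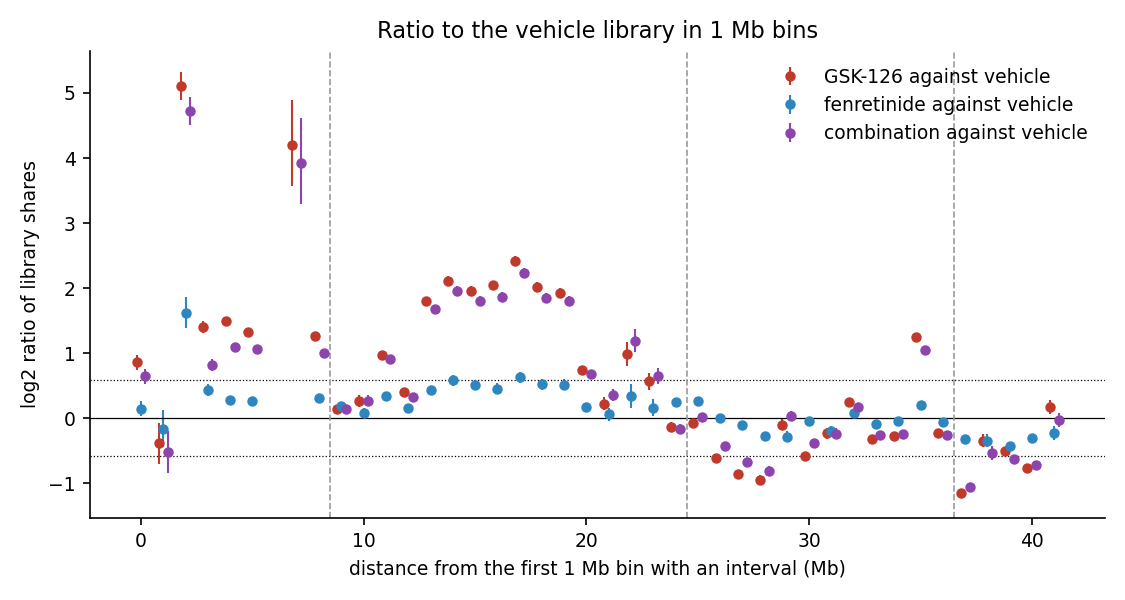
The log2 ratio of library shares to vehicle (y axis) in each 1 Mb bin against its distance from the first bin (x axis), with bars for the 95% counting interval, dotted lines at the ratios called, and dashed lines between the 4 segments. GSK-126 and combination points lie together, above 1.5 in all 7 bins of the stretch with few genes and below 1 in most bins of the last 2 segments; fenretinide points stay within the dotted lines in 38 of 40 bins.

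The highest 2 ratios belonged to thinly covered bins of the first segment. The bin at 7 Mb had only 6 intervals and held 182 fragments with vehicle, 5894 with GSK-126, 619 under fenretinide and 4435 under the combination, for ratios of 34.3 (29.6 to 40.0), 3.08 (2.61 to 3.65) and 26.4 (22.8 to 30.8). Most of it was 1 interval, chr21:7915746-7970296, with 170, 5781, 590 and 4336 fragments. A second short interval, chr21:9246088-9249672, had 15, 488, 35 and 386. The bin at 12 Mb held 22, 380, 104 and 307 fragments, a ratio of 18.3 (11.9 to 29.6). Sequence in this segment resembles other acrocentric chromosomes, and the labels do not say how reads that fit several places were treated. Their role in these ratios was not tested.

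Bins with few genes had the higher ratios. Over the 41 bins, the number of protein-coding genes and the log2 ratio of GSK-126 to vehicle had a Spearman rho of -0.73, against -0.66 over 2850 bins of the other chromosomes; genes per bin and vehicle density had a rho of 0.64. The 10 bins without a coding gene had a median ratio of 3.85, compared with 2.40 in 341 such bins elsewhere. In the 15 bins with 1 to 5 genes the median was 1.67 (1.11 elsewhere), in the 10 bins with 6 to 10 genes 0.853 (0.772 elsewhere), and in the 6 bins with more than 10 genes 0.745 (0.620 elsewhere). No test of the difference from other chromosomes was made, since neighbouring bins are not independent. The highest ratio, 34.3, belonged to the bin at 7 Mb, which has 5 coding genes. One bin with no coding gene midpoint went against the pattern. At 35 Mb the libraries held 7145, 4523, 7647 and 5068 fragments, and the ratio of GSK-126 to vehicle was 0.671.

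**Figure D4:**
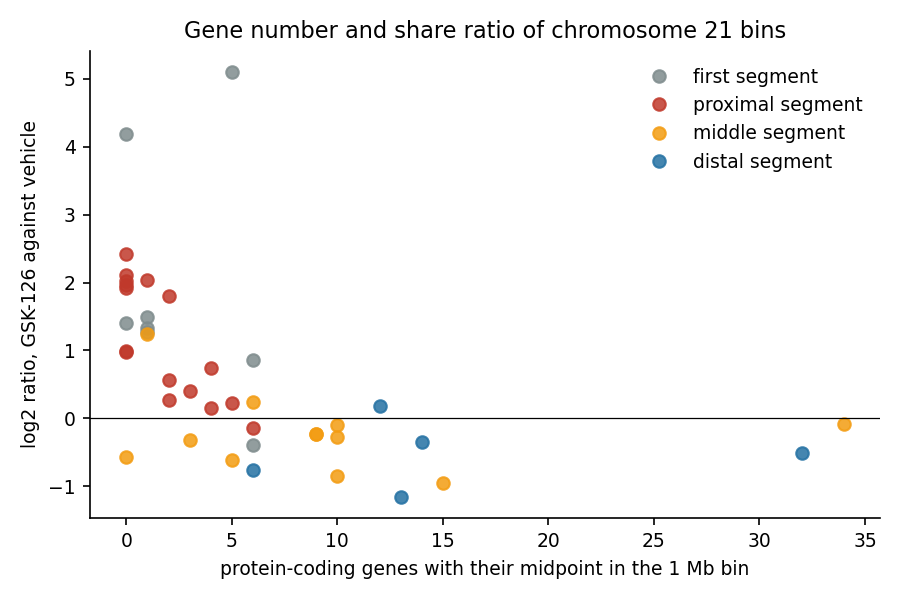
The log2 ratio of GSK-126 to vehicle (y axis) of each of the 41 bins against the number of protein-coding genes in it (x axis), coloured by segment. The highest point, at a ratio of 34.3, is the bin at 7 Mb, which has 5 genes. Bins without a gene reach a ratio of 18.3, while the 6 bins with more than 10 genes lie between 0.450 and 1.13.

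Single intervals followed their segment. An interval was called at a ratio of at least 2, or of 0.5 or less, given at least 20 fragments in the 2 libraries together, which 2034 of 3592 had for GSK-126. Of these, 1042 were higher (background 25.9%) and 253 lower (background 21.6%) with GSK-126, and 739 were neither. In the proximal segment 818 of 1203 were higher and 52 lower, whereas in the distal segment 24 of 156 were higher and 70 lower. An interval with few vehicle fragments could reach the minimum of 20 only through a high GSK-126 count, which favoured a higher call. This bears most on the proximal segment, with 5.33 vehicle fragments per kb against 16.5 in the distal one. The segment counts are therefore no measure of how many intervals rose. With fenretinide, 105 of 1824 were higher (background 3.31%) and 33 lower (background 2.16%). Of the 105, 85 lay in the proximal segment, which held 1010 of the 1824 tested (8.42% of them higher, against 5.76% on the whole chromosome). The combination had 937 higher (background 24.1%) and 199 lower (background 15.8%) of 2004. Under the scaling to low intervals the split was 600 higher and 540 lower with GSK-126, 64 and 54 under fenretinide, and 438 and 546 under the combination. In the 739 intervals that had a peak in all 4 libraries, 227 of 737 tested (30.8%) counted as higher and 87 (11.8%) as lower with GSK-126. Of 1297 tested with a peak in fewer libraries, 815 (62.8%) were higher and 166 (12.8%) lower. No genome share was computed for such intervals, and over all intervals of the genome the shares were 25.9% and 21.6%. Intervals with a peak in the GSK-126 and combination libraries alone numbered 647, which was 18.01% of those on chromosome 21 and 9.22% of those in the genome.

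By the class the deposited annotation gives each interval, 800 of 1420 tested intergenic intervals were higher with GSK-126 (56.3%, against 28.1% of that class in the genome) and 152 lower (10.7%, against 19.2%). Of 556 intronic ones 227 were higher (40.8%, against 22.7%) and 82 lower (14.7%, against 24.6%). Of the 23 tested intervals at promoters, 5 were higher (21.7%, against 11.8%) and 9 lower, and the latter share of 39.1% was close to the 41.2% of promoter intervals in the genome. By length, 15 of 39 tested intervals of up to 1 kb were higher and 3 lower, and 536 of 1090 of 1 to 5 kb were higher and 145 lower. Of those of 5 to 20 kb, 430 of 751 were higher and 91 lower, and 61 of 154 longer than 20 kb were higher and 14 lower. Genome shares by length were not computed, so the counts by length have no background and are no result about interval length.

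The 3 longest intervals showed both directions. The longest, chr21:31867014-32095673, spans 229 kb around HUNK, a kinase gene, and LINC00159. It held 5445, 3130, 6001 and 3419 fragments, a ratio of GSK-126 to vehicle of 0.610 (0.583 to 0.637). The next was the DSCAM interval, which spans 182 kb, with a ratio of 3.81 (3.53 to 4.11). The third longest, chr21:45557278-45723945, lies near SLC19A1, the reduced folate carrier, and held 3819, 2199, 3612 and 2241 fragments, a ratio of 0.611 (0.579 to 0.644). With vehicle the DSCAM interval was thin, at 4.72 fragments per kb against 23.8 and 22.9 in the other two. With GSK-126 the 3 were alike, at 16.9, 13.7 and 13.2 in the same order.

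Gene by gene, a gene was credited with the intervals whose nearest transcription start was its own and lay within 10 kb. This gave 266 genes, 77 of which share an interval's fragments with another gene, and called a gene at a ratio of 2 given at least 50 fragments. With GSK-126, 37 of 211 were higher (background 11.5%) and 48 lower (background 41.4%), and the median log2 ratio was -0.35 against -0.79 over all genes. The combination gave 32 higher (background 9.86%) and 46 lower (background 32.9%) of 209, with a median of -0.39 against -0.64. Fenretinide gave 0 higher (background 0.337%) and 2 lower (background 1.5%) of 210, with a median of -0.07 against -0.15. Under the scaling to low intervals, 114 genes were lower with GSK-126, and 15 were higher and 131 lower with the combination. Over whole gene spans with 5 kb on each side, 24 of 141 coding genes were higher (background 17.2%) and 30 lower (background 37.6%) with GSK-126. For the combination these were 16 (background 15.4%) and 29 (background 30.2%) of 137, and for fenretinide 0 (background 0.712%) and 4 (background 1.57%) of 131.

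The 2 genes called lower with fenretinide were both long noncoding. LINC00322 had 76, 30, 38 and 17 fragments, and LOC101928576, on the short arm, had 94, 32, 50 and 21. In both the combination library had the fewest fragments.

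Among neural adhesion, receptor and synaptic genes, 3 of 8 tested near their start were higher with GSK-126 (11.5% of all genes) and 1 lower (41.4% of all genes), with a median log2 ratio of 0.33, which becomes -0.44 under the scaling to low intervals. Over spans, 5 of 12 were higher (17.2% of all coding genes) and 0 lower (37.6%). These 4 shares over the genome are the background for the GSK-126 counts of each list below, and the lists are too short for a share of their own to be read closely. NCAM2 near its start had 24 fragments with vehicle and 87 with GSK-126, and APP over its span had 18 and 115. Both could reach the minimum for a gene only through a high GSK-126 count, so these calls were set by that filter. The 3 of 8 and the 5 of 12 include them and are to be read with that limit. NCAM2, a neural cell adhesion molecule gene at chr21:20998409-21543329, lies inside the stretch from 18 to 25 Mb. Its span held 1253 fragments with vehicle, 3896 with GSK-126, 1793 under fenretinide and 3406 under the combination. The ratios were 3.30 (3.09 to 3.52), 1.30 (1.20 to 1.39) and 2.95 (2.76 to 3.14). Of its 104 intervals 60 had enough fragments, and 54 of them were higher with GSK-126 and 0 lower. With 1253 vehicle fragments over 104 intervals, an interval could pass the minimum through its GSK-126 count alone, and such an interval had to differ. Only 12 of the 104 had a peak in all 4 libraries, and these 12, which held 581 fragments with vehicle and 1555 with GSK-126, were all higher. The CHODL span, in the same stretch, held 1324, 3563, 1888 and 3179 fragments, a ratio of 2.85 for GSK-126.

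DSCAM, at chr21:40010999-40847158, held 7982, 15531, 9936 and 13325 fragments over its span, with ratios of 2.06 (2.01 to 2.12), 1.13 (1.09 to 1.16) and 1.81 (1.76 to 1.86). Of its 36 intervals 31 had a peak in all 4 libraries, so that this gene was marked with vehicle too. With GSK-126, 13 of the 32 tested were higher and 0 lower. APP, the amyloid precursor protein gene, had 1 interval in its span, with 18, 115, 29 and 69 fragments. TIAM1, an exchange factor for the small GTPase RAC, had 79, 169, 98 and 216 over its span. Other members went the other way near their start. JAM2, a junctional adhesion molecule, had 208, 69, 184 and 100 fragments. CXADR, the coxsackievirus and adenovirus receptor, had 782, 398, 720 and 424, a ratio of 0.540 for GSK-126, which is not a call. GRIK1, a kainate receptor subunit gene, was called in no direction over its span (2675, 1981, 3444 and 1908 fragments).

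Of 10 transcription factor genes of development, 4 had enough fragments near their start for GSK-126. Of these 2 were lower and 1 higher, and with the combination 2 of 3 were lower (background 32.9%). Their median log2 ratios were -0.95 and -1.31. Over spans 4 of 8 were called higher and 2 lower with GSK-126, with a median log2 ratio of 0.16 (-0.67 over all coding genes). With the combination 1 of 6 spans was higher (background 15.4%) and 2 lower (background 30.2%). Among the members higher over spans, GABPA, ETS2 and SIM2 had so few vehicle fragments that only a high GSK-126 count could bring them to the minimum. PRDM15 did not depend on this. SIM2 was also the member called higher near its start. The filter thus favoured higher calls, and the 4 of 8 and the positive median are no result about these factors. GABPA, an ETS-family factor of mitochondrial genes, had 10, 47, 21 and 24 over its span, ETS2, another ETS factor, had 19, 71, 28 and 38, and PRDM15, a zinc-finger factor, had 76, 149, 82 and 102; SIM2, described below, was the other. OLIG2, which specifies oligodendrocytes and motor neurons and is a well known Polycomb target, had 418 fragments with vehicle, 170 with GSK-126, 340 under fenretinide and 155 under the combination. Both libraries with GSK-126 were low, at ratios of 0.431 (0.359 to 0.517) and 0.402 (0.332 to 0.484), and fenretinide stood between at 0.736 (0.636 to 0.852). Its neighbour OLIG1 had 446, 261, 377 and 270 fragments, the same order without a call. AIRE, credited with a second interval as well, had 784, 211, 506 and 214 fragments, with ratios of 0.285, 0.584 and 0.296.

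Other factors differed. SIM2, a bHLH-PAS factor of neural development, had 5 fragments with vehicle and 5 with fenretinide, 63 with GSK-126 and 26 with the combination, and the ratio of 13.4 for GSK-126 has a counting interval of 5.43 to 42.6. ERG, an ETS factor of endothelial and blood cells, had no interval near its start. Over its span of 295 kb it held 2996, 1471, 2916 and 1776 fragments, with ratios of 0.521 (0.489 to 0.554) and 0.642 (0.605 to 0.681) for GSK-126 and the combination, and 8 of its 19 tested intervals were lower and 0 higher with GSK-126, or 3 and 0 of the 10 with a peak in all 4 libraries. RUNX1, a master factor of blood formation, had only 2 intervals in its span of 262 kb. They held 3, 9, 3 and 12 fragments, which is too few for a call, and fragments outside intervals were not counted.

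Trefoil factor and membrane serine protease genes, which are epithelial genes, lie mostly in the bins at 41 and 42 Mb. With GSK-126, 2 of 6 were lower near their start and 1 higher (median log2 ratio -0.88, against -0.79 over all genes), a share lower that does not exceed the background of 41.4%. With the combination 3 were lower (background 32.9%) and 1 higher (background 9.86%), with a median of -0.88 against -0.64. TFF1 had 225, 55, 197 and 79 fragments and TFF3 had 656, 289, 594 and 297. TMPRSS2, an androgen-regulated protease gene, had 852, 448, 876 and 470, a ratio of 0.558 (0.496 to 0.626), without a call. TMPRSS15, which encodes the intestinal enteropeptidase, lies in the stretch from 18 to 25 Mb and was the member called higher, with 109, 244, 136 and 241.

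The 4 potassium channel genes with the chloride channel CLIC6 and TRPM2 gave 1 lower (background 41.4%) and 0 higher of 5 with GSK-126 (median log2 ratio -0.70, against -0.79 over all genes). KCNE2, a small regulatory subunit, had 226, 70, 200 and 82 fragments. KCNJ6, a G-protein-gated inward rectifier of neurons, had 1080, 1872, 1383 and 1588. Its ratio of 1.84 (1.70 to 1.98) for GSK-126 is not a call. The keratin-associated protein genes of hair were mostly not called: of 32 tested, 31 were called in neither direction with GSK-126, KRTAP15-1 was lower (129, 58, 150 and 79 fragments), and the median log2 ratio was -0.22, against -0.79 over all genes. With fenretinide none was called (backgrounds 0.337% higher and 1.5% lower), nor with the combination (backgrounds 9.86% and 32.9%), with medians of -0.04 and -0.27. The 36 genes of this family with a vehicle fragment gave only 25 different sets of counts, and 1 set was shared by 9 genes, so they are not separate measurements.

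Genes of the interferon system were mostly not called. IFNAR2, a type I interferon receptor chain, had 76, 20, 65 and 35 fragments near its start and was the 1 of 4 called lower with GSK-126 (background 41.4%). IFNAR1, the partner chain, had 95, 100, 109 and 66 near its start without a call, but 116, 248, 105 and 170 over its span, a ratio of 2.27 (1.81 to 2.85). MX1, an antiviral GTPase gene, had 196, 204, 179 and 174, a ratio of 1.10 (0.903 to 1.35). The list's median log2 ratio was -0.05 with GSK-126, -0.16 under fenretinide and -0.35 under the combination. Of the claudins, which seal tight junctions, 2 could be tested near their start and neither was called in any comparison, with medians of 0.08, 0.41 and -0.14; the first is -0.69 under the scaling to low intervals.

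The collagen and matrix protease genes had little signal. COL6A2, a collagen VI chain gene, had 20, 75, 11 and 46 fragments near its start, a ratio of 3.98 (2.40 to 6.88) for GSK-126, but 107, 63, 60 and 40 over its span, a ratio of 0.624 (0.450 to 0.860). Its direction thus differed with the way in which intervals are given to a gene. With 20 vehicle fragments, however, COL6A2 could reach the minimum near its start only through a high GSK-126 count. Its higher call there was set by that filter, and the change of direction is no result about this gene. COL6A1 had 15, 49, 3 and 21 over its span, and its higher call with GSK-126 was set by the filter in the same way.

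Of 20 genes listed as broadly expressed, from general knowledge and not from RNA of these cells, 7 had an interval near their start. Of 4 tested there with GSK-126, 1 was higher (background 11.5%) and 2 lower (background 41.4%). Over spans 4 of 8 were higher (background 17.2%) and 3 lower (background 37.6%). Of those higher over spans, TTC3, an E3 ubiquitin ligase gene, had 14, 152, 30 and 83 fragments. PCNT, the pericentrin gene of the centrosome, had 5, 61, 11 and 53, and DYRK1A, a kinase gene, had 17, 44, 10 and 33. With so few vehicle fragments, TTC3, PCNT and DYRK1A could reach the minimum of 50 only through a high GSK-126 count. Their calls were therefore set by that filter, and the 4 of 8 is no result about broadly expressed genes. PFKL, a phosphofructokinase gene, was lower over its span through the interval at the AIRE start. SOD1, the superoxide dismutase gene, had none there or over its span. HMGN1, a nucleosome-binding protein gene, had 129, 30, 128 and 50 fragments, a ratio of 0.247 for GSK-126. WRB (now GET1), a receptor for tail-anchored proteins, had 312, 105, 309 and 127. SUMO3 showed both directions within a short distance: the interval chr21:44819173-44830370, nearest to its start, held 102, 491, 91 and 311 fragments, a ratio of 5.10 (4.12 to 6.38). The interval chr21:44838815-44845423, further upstream, held 114, 14, 70 and 28, a ratio of 0.130 (0.0690 to 0.228). By its counting bound the latter was the largest fall with GSK-126 among intervals with at least 100 fragments. The next was an intronic interval of the phosphodiesterase gene PDE9A, chr21:42674512-42684388, with 154, 27, 126 and 52 fragments.

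**Figure D5:**
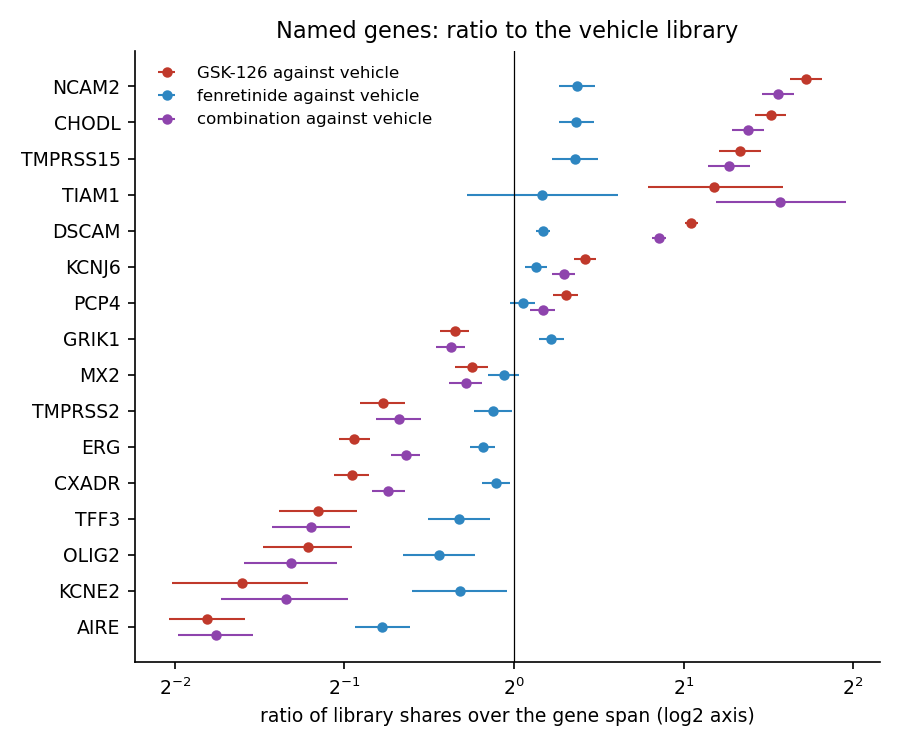
Ratio of library shares to vehicle (x axis, log2) over the spans of 16 named genes (y axis), with bars for the 95% counting interval; the 16 were chosen after their values were seen. GSK-126 and combination points run from 3.30 and 2.95 at NCAM2 to 0.285 and 0.296 at AIRE, and fenretinide points lie nearer to 1, from 1.30 to 0.584.

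Near starts, and with at least 100 fragments, the 5 largest ratios by counting bound belonged to genes of which none is listed as protein-coding in RefSeq, and 2 of which, MGC39584 and AP000475.2, were not matched there. SIM2, with fewer fragments, had a bound of 5.43 that exceeds some of these. LINC00310 had 30, 304, 35 and 249 fragments, a ratio of 10.7 with GSK-126. MGC39584 had 104, 782, 180 and 385. In the stretch from 18 to 25 Mb, MIR6130 had 41, 274, 74 and 233 and LINC00308 had 27, 172, 56 and 135. AP000475.2, which shares an interval with LINC00317, had 59, 330, 105 and 259. These 5 were picked for a high ratio to vehicle, so their rise over vehicle with GSK-126 was set by that choice. With 30, 41 and 27 vehicle fragments, LINC00310, MIR6130 and LINC00308 could reach the minimum of 100 only through a high GSK-126 count. In each of the 5 the combination library was second to the GSK-126 library.

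The largest falls, apart from those above, lay mostly in the distal segment. DNMT3L, a catalytically inactive cofactor of DNA methyltransferases that lies next to AIRE, had 359, 95, 265 and 89 fragments. UMODL1 had 731, 207, 699 and 245 over 2 intervals, and C21orf128, inside it, had 379, 106, 332 and 99. ABCG1, a cholesterol exporter gene, had 1318, 449, 1043 and 473, a ratio of 0.361. C21orf54 and AP000289.6 share 1 interval with 2378, 714, 2234 and 957 fragments, in the bin at 33 Mb next to the OLIG genes. C21orf59, a cilia gene, had 172, 44, 158 and 54. These genes were picked for low ratios to vehicle, so their low GSK-126 counts were set by that choice. For all of them the combination library was low too, and the fenretinide library stood between the GSK-126 and vehicle libraries or level with vehicle.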

How the data were processed

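H3K27me3 ChIP-seq was measured in 4 T24 libraries, 1 per condition. The submitters' processing notes name MACS2 2.1.0 as the peak caller, and each library's peaks were deposited with a score whose scale is not stated (minimum 10) and a distance to the nearest start, annotated with HOMER per the file headers. Raw fragment counts per joined interval were deposited, made with featureCounts 2.0.1 per the file headers (paired fragments, unstranded, counted in each interval they overlap by at least 0.2 of their length), on GRCh38/hg38. The aligner and the use of the inputs are not given in the sources used here. Interval starts in the count table count from 0, by comparison with the peak starts, and were made 1-based.

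From these counts, shares, ratios and exact (Clopper-Pearson) 95% intervals were computed in Python 3.11.15 with scipy 1.17.1, over the whole table, for 5 pairs of libraries. Bins used interval midpoints; coding genes were placed by midpoint, and spans came from RefSeq (215 of 266 gene names matched, GRCh38.p14). The calls were checked on simulated counts with planted changes and counting error only. That check says nothing on variation between libraries. Alternatives were TMM factors (edgeR 4.0.16), a scaling on the sparsest 25% of intervals, size factors (DESeq2 1.42.0), and other minimums, ratios, bins and distances. Named genes were the 5 largest rises and 10 largest falls with at least 100 fragments per comparison with vehicle, up to 2 each way per list, and 13 chosen by name; those said in the text to be chosen on values are extra. The members, lists and tests were chosen with earlier results of these data known.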

Additional observations from a re-analysis of the deposited data

How the results depend on the processing

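No paired analysis was possible because each condition had 1 ChIP library, which also leaves no library to leave out. The stretch of the proximal segment kept a higher ratio than the distal segment under each scaling run, since a scaling multiplies both. The directions against vehicle depended on it. Values that stayed within their counting interval, or counts within 1.5 times, are left out below, and the cause of the others was not tested beyond the construction of each setting. The depth allowed calls in 2034 of 3592 intervals for GSK-126 against vehicle.

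Scaled to low intervals, the share ratio to vehicle turned below 1 with GSK-126 (0.829), fenretinide (0.950) and the combination (0.747), and that of the combination to fenretinide to 0.787; the combination to GSK-126 was 0.901. Interval calls became 600 higher and 540 lower with GSK-126, 64 and 54 under fenretinide, and 438 and 546 under the combination. Bin calls became 11 and 18 with GSK-126, 1 higher with fenretinide, 9 and 19 with the combination, 1 lower for the combination against GSK-126, and 8 and 16 against fenretinide. Gene calls became 114 lower with GSK-126, 5 lower under fenretinide, and 15 higher and 131 lower under the combination. Segment ratios, from first to distal, were 1.68, 1.33, 0.533 and 0.359 with GSK-126, 1.13, 1.13, 0.898 and 0.719 with fenretinide, and 1.30, 1.20, 0.524 and 0.342 with the combination. List medians on the log2 scale were, with GSK-126, -0.98 for keratin-associated, -0.69 for claudin and 1.20 for matrix genes. With fenretinide they were 0.28 for claudins and -0.37 for channels. With the combination they were -2.13 for transcription factors, -1.08 for keratin-associated genes, -0.95 for claudins, -1.16 for interferon genes, 0.48 for matrix genes, -1.70 for trefoil factors and proteases and -1.42 for broadly expressed genes.

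With edgeR TMM factors the share ratios were 1.36 for GSK-126, 0.961 for fenretinide, 1.18 for the combination, 0.863 for the combination to GSK-126 and 1.22 to fenretinide. Fenretinide had 66 intervals higher and 50 lower, 1 bin higher and 5 genes lower. The combination had 8 bins lower than vehicle, 1 lower than GSK-126 and 2 lower than fenretinide. Segment ratios were 2.77, 2.19, 0.877 and 0.591 with GSK-126, 1.14, 1.14, 0.909 and 0.727 with fenretinide, and 2.04, 1.89, 0.825 and 0.538 with the combination. Medians were -0.43 for keratin-associated genes with the combination, and 0.29 for claudins and -0.36 for channels with fenretinide. With DESeq2 size factors the share ratios were 0.957 for fenretinide, 1.20 for the combination and 0.852 for the combination to GSK-126. Fenretinide had 66 intervals higher and 51 lower, 1 bin higher and 5 genes lower, and 1 bin was lower with the combination than with GSK-126. Segment ratios were 1.14, 1.14, 0.905 and 0.724 with fenretinide and 2.08, 1.92, 0.840 and 0.548 with the combination. Medians were -0.40 for keratin-associated genes with the combination, and 0.29 for claudins and -0.36 for channels with fenretinide.

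In intervals with a peak in all 4 libraries, as shares of the fragments in such intervals, the chromosome's ratios were 1.24 for GSK-126, 1.02 for fenretinide, 1.16 for the combination, 0.937 for the combination to GSK-126 and 1.14 to fenretinide. Calls and segment ratios for them keep all interval fragments as the denominator, on which the chromosome's ratios were 1.17, 1.01 and 1.10 for GSK-126, fenretinide and the combination to vehicle. Of these intervals 227 were higher and 87 lower with GSK-126, 9 and 3 under fenretinide, and 189 and 71 under the combination. Segment ratios were 2.42 (first), 1.69 (proximal) and 0.598 (distal) with GSK-126, 1.20 and 1.17 (first and proximal) with fenretinide, and 1.95 and 1.58 with the combination. Without the first segment the share ratios were 1.25, 1.02, 1.20, 0.966 and 1.18 in the same order.

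A minimum of 50 fragments left 631 intervals higher and 161 lower with GSK-126, 42 and 7 under fenretinide, and 545 and 123 under the combination. A deposited peak score of at least 20 left 694 higher with GSK-126, 15 lower under fenretinide and 615 higher under the combination. At a ratio of 1.5, 205 were higher and 63 lower under fenretinide and 302 lower under the combination, and with no minimum 63 were lower with fenretinide. Bins of 2 Mb gave 9 higher and 3 lower with GSK-126, 1 higher with fenretinide, 9 and 3 with the combination, and 8 higher for the combination against fenretinide. At a ratio of 2, 1 bin was lower with GSK-126, 1 higher with fenretinide, 1 lower with the combination, and 9 higher and 0 lower for the combination against fenretinide. Bins shifted by 0.5 Mb gave 9 lower with GSK-126 and 3 lower for the combination against fenretinide. Within 2 kb of a start, gene calls were 22 higher and 26 lower with GSK-126, 1 and 1 under fenretinide, and 18 and 21 under the combination, and the claudin median was 0.48 with fenretinide. With no limit on distance, 63 genes were higher with GSK-126, 2 under fenretinide and 57 under the combination. Medians were then -0.30 and -0.42 for transcription factors with fenretinide and the combination, -0.22 and 0.21 for claudins with GSK-126 and fenretinide, and 0.41 and 0.048 for matrix genes with GSK-126 and the combination. A minimum of 20 gave 1 gene higher and 4 lower with fenretinide.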

Other observations

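Genes that RefSeq lists as miRNA genes belong to no list above and were looked at after values of some were seen. Of 15 with an interval near their start, 12 could be tested, and with GSK-126 7 were higher (background 11.5%) and 1 lower (background 41.4%). All 5 tested in the proximal segment were higher with GSK-126 and with the combination (background for the combination 9.86%). Of 25 other genes tested there with GSK-126, 7 were higher and 4 lower. Of the 7 tested elsewhere on the chromosome 2 were higher and 1 lower. The segment as a whole stood at 2.27, no test of the difference was made, and several of these genes are neighbours. MIR99A had 44, 116, 77 and 130 fragments in the vehicle, GSK-126, fenretinide and combination libraries, and its neighbour MIRLET7C, of the let-7 family, had 30, 66, 31 and 75. MIR125B2, further along the same host transcript, had 72, 138, 89 and 134, and MIR548X had 41, 164, 72 and 148. MIR6508, the member called lower, had 95, 34, 95 and 41 and shares its interval with SH3BGR.

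Over all 1 Mb bins of a chromosome, the vehicle library varied more on chromosome 21 (coefficient of variation 53.2%) than on any of the other 22 chromosomes, where it ran up to 51.7% on chromosome 18. For the GSK-126 library the value on chromosome 21 was exceeded only on chromosome 16, at 117%.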
